A study of Mus musculus with 24 samples.

Results

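A list of 38 genes of DNA replication was followed through m6A sequencing of tumor-infiltrating myeloid cells. The list was drawn up by function, as licensing factors, helicase, fork and nucleotide supply genes, and all 38 were matched by symbol to the 54446 gene identifiers in the count files. CD11b+ cells were taken from subcutaneous MC38 tumors, a mouse colon carcinoma line, in C57BL/6J mice of both sexes aged 8 to 10 weeks. WT mice carried floxed Ythdf2 alleles (Ythdf2 fl/fl), and Ythdf2-cKO mice (hereafter cKO) carried the same alleles with Lyz-Cre, which is expressed from the Lyz2 locus in monocytes, macrophages and granulocytes; YTHDF2 is a reader protein that binds m6A-modified RNA. Tumors received 20 Gy in one dose (IR) or none (Ctrl), and cells were collected 3 days after IR. Each of the 4 groups has 3 Input libraries of poly(A) RNA and 3 libraries of the RNA recovered with an m6A antibody (IP), 24 libraries in all. Per the study's methods 5 mice were pooled for a replicate and replicates were called technical in one place and biological in another, so the p-values measure the spread between these libraries, which may be technical.

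Before S phase the origin recognition complex, CDC6 and CDT1 load the MCM2-7 ring onto DNA, and CDC45, MCM10 and the GINS complex turn that ring into the active helicase. DNA polymerase alpha-primase then lays down primers, and polymerases epsilon and delta copy the strands on the PCNA clamp, which the RFC complex loads. Ribonucleotide reductase and the thymidylate enzymes supply deoxynucleotides. Transcripts of these genes rise at the G1/S transition in dividing cells, largely through E2F factors, and bone marrow progenitors of myeloid cells divide far more than mature granulocytes do.

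Counts assigned to genes ranged from 65180075 to 83661576 in the Input libraries and from 68846321 to 86421888 in the IP libraries. All 38 genes passed the filter of at least 10 counts in at least 3 libraries, both among the 16090 genes tested in the 12 Inputs and among the 17373 tested in the 24 libraries. Levels are given as CPM, counts scaled to the library total after TMM correction, changes as log2 values ± standard error from edgeR's quasi-likelihood test, and a gene was called at a Benjamini-Hochberg adjusted p below 0.05 over all genes tested. Input CPM used the TMM factors of the 12 Inputs and IP CPM those of all 24 libraries. Input and IP CPM are therefore on slightly different scales, while log2 ratios of IP over Input come from the fit over all 24 libraries. Among the Inputs, Ythdf2 itself stood at 96.8 ± 1.23 CPM in WT Ctrl (mean ± SD, n = 3 here and below) and 105 ± 1.51 CPM after IR, and in cKO mice at 178 ± 6.05 CPM without and 223 ± 7.25 CPM with IR. This count covers the whole gene, and the sources used here do not give which exons are floxed, so it does not check the genotype. Lyz2, which the Cre insertion disrupts, averaged 20586 CPM in WT Inputs without IR and 20745 with it, while cKO Inputs averaged 299.8 and 409 CPM. In the irradiated IP libraries this was turned around, with 89.6 CPM under the WT IR label but 19699.6 CPM under the cKO IR label, so these IP groups are named by their labels and no genotype direction is drawn from them. Itgam, which encodes CD11b, lay between 337 and 412 CPM in the Input groups, and of the T cell, NK cell, B cell, fibroblast and endothelial marker lists none summed above 3.74 CPM in any Input library. The 7 carcinoma epithelium genes summed to 5.50 to 8.13 CPM in the Inputs and 83.0 to 116 CPM in the IP libraries, of which Cdh1 made up 4.41 to 7.42 and 82.5 to 115 CPM, while Krt19 was at 0 in all 24 libraries and Krt8 was at 0 in all but 2. In the annotation 19 of the 38 genes overlap another gene, 9 of them on the same strand, and reads of such partners could not be told apart here. In bulk RNA, fewer dividing cells and less of a transcript per cell cannot be told apart.

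Irradiation was followed by lower levels of nearly the whole replication list in WT cells and of most of it in cKO cells. Of the 38 genes, 35 were lower and 1 was higher with IR in WT Inputs, where 17.0% and 14.7% of all tested genes were called lower and higher; the median log2 change was -0.67 for the list and 0.01 for all genes. In cKO cells 26 were lower and 2 higher, beside 23.8% and 21.8% of all genes, with medians of -0.40 and 0.01. Their summed level fell from 1101 ± 12.8 to 743 ± 7.47 CPM in WT and from 1079.6 ± 6.77 to 826 ± 8.38 CPM in cKO, and in each genotype every irradiated library lay below every unirradiated one. Both genotypes shared 25 lower genes, 9 were called lower in WT and not in cKO, Pold1 was called lower in cKO and not in WT, Gins4 fell in WT and rose in cKO, Gins3 rose in both, and Rfc3 was called in neither; the difference between genotypes was tested separately.

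Marker lists of other cell populations moved with irradiation in the same libraries. The summed level of the 7 primary granule genes of myeloid progenitors, such as Mpo and Elane, was 75.9 to 86.1 CPM in WT Ctrl and 1.80 to 2.52 CPM in WT IR Inputs, with Elane and Ms4a3 at 0, and 25.8 to 28.7 against 2.75 to 2.95 CPM in cKO. The 8 neutrophil genes summed to 2152 to 2251 against 767 to 805 CPM in WT, and to 1134 to 1148 against 721 to 730.4 CPM in cKO. The 6 erythroid genes summed to 28.0 to 30.6 CPM in WT IR and to at most 0.0669 CPM in the other Input groups. The 5 dendritic cell genes summed to 44.8 to 46.6 CPM in WT Ctrl against 70.2 to 72.4 CPM in WT IR, and to 41.7 to 42.4 against 57.3 to 58.7 CPM in cKO. Not all members followed this sum. Cd209a and Xcr1 were at 0 in WT IR, and of 3 genes tested 2 were called higher in WT and 1 in cKO. The 4 endothelial genes summed to 3.64 to 3.74 against 1.71 to 2.07 CPM in WT and to 2.50 to 3.0003 against 1.64 to 1.81 CPM in cKO. These are low levels, and of 3 endothelial genes tested 1 was called lower in each genotype. Irradiated and unirradiated libraries did not overlap in any of these sums except the erythroid one in cKO, and the part of these shifts in the replication gene changes was not tested.

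**Figure D1:**
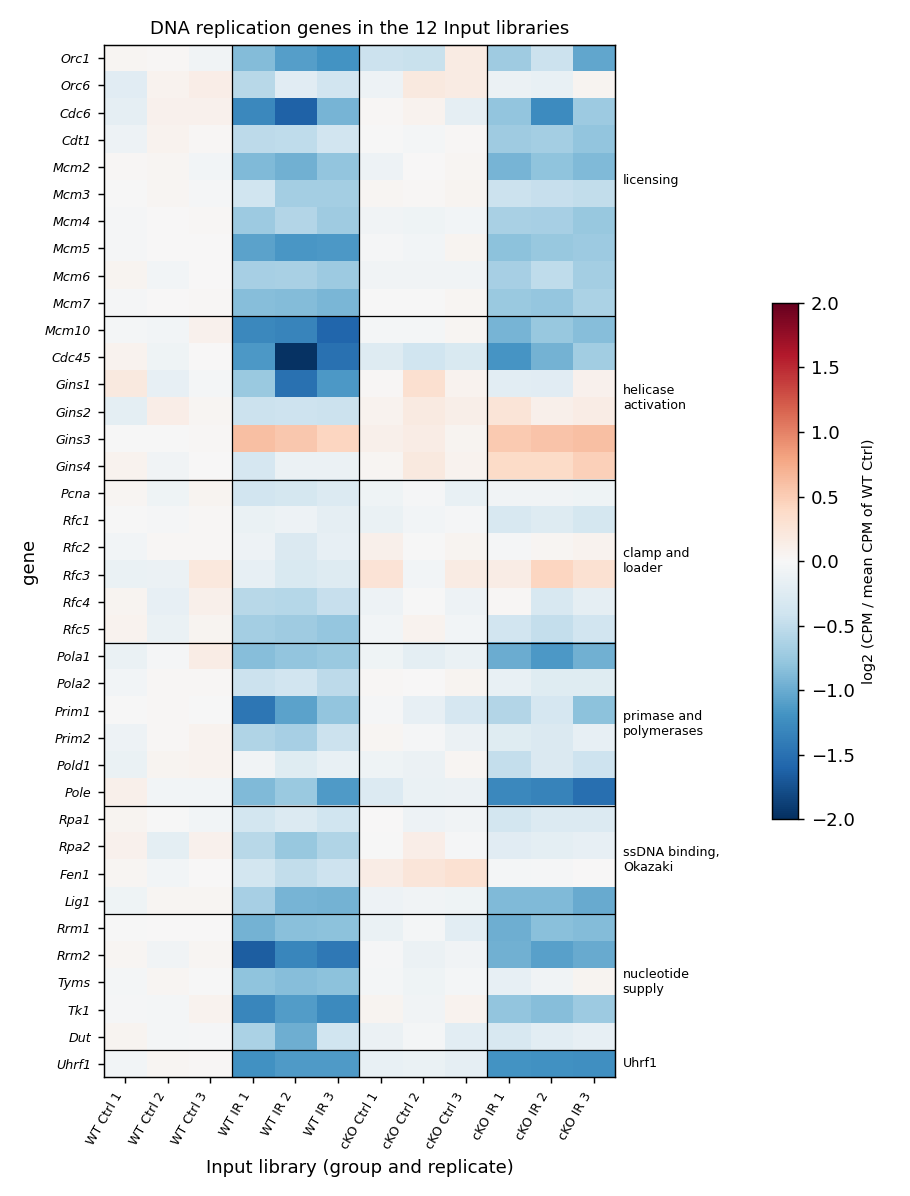
Level of each of the 38 replication genes (rows, grouped by role) in each of the 12 Input libraries (columns), as log2 of CPM over the mean CPM of WT Ctrl; blue is lower. The WT IR columns are blue for 35 called genes. The cKO IR columns are paler blue or red for most helicase activation, clamp and loader and nucleotide supply genes, though not for Rfc1 and Rrm1. Gins3 is red in both.

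All 10 licensing genes fell in WT (log2 change -1.25 to -0.38, median -0.77) and 9 of 10 in cKO (median -0.67, with Orc6 at -0.16 and not called). Cdc6, which loads MCM rings and had the largest change of this role in both genotypes, stood at 4.49, 5.41 and 5.39 CPM in unirradiated and 2.09, 1.67 and 2.68 CPM in irradiated WT libraries, a change of -1.25 ± 0.16 (adjusted p = 4.38e-06). In cKO its libraries stood at 5.16, 5.34 and 4.48 CPM in Ctrl and 2.96, 2.13 and 3.10 CPM in IR (-0.87 ± 0.16, adjusted p = 1.12e-04). In both genotypes all 3 irradiated libraries lay below all 3 unirradiated ones, at levels that are low for the list. Mcm3, a subunit of the ring and the most abundant licensing transcript by CPM, went from 87.5, 90.4 and 86.5 to 66.8, 54.8 and 54.7 CPM in WT (-0.58 ± 0.057, adjusted p = 8.27e-08). In cKO it went from 90.8, 89.4 and 91.6 to 65.4, 64.3 and 62.4 CPM (-0.50 ± 0.056, adjusted p = 3.36e-07). The 6 ring subunits Mcm2 to Mcm7 fell together, by between 0.58 (Mcm3) and 1.13 (Mcm5) on the log2 scale in WT and by between 0.50 (Mcm3) and 0.85 (Mcm2) in cKO. Orc1, the largest subunit of the origin recognition complex, changed by -0.49 ± 0.20 (adjusted p = 0.0498) in cKO, and this call was lost without cKO Ctrl replicate 3 (adjusted p = 0.329), cKO IR replicate 1 (0.102) or cKO IR replicate 3 (0.201). The call of Orc6 in WT (adjusted p = 0.0137) was lost without WT Ctrl replicate 2 (adjusted p = 0.0549) or WT Ctrl replicate 3 (0.0739). Cdt1, the partner of CDC6 in ring loading, fell more in cKO (-0.72 ± 0.062, adjusted p = 9.16e-09) than in WT (-0.47 ± 0.062, adjusted p = 5.78e-06).

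The promoters of the list carried a sequence feature that the choice of genes did not use, the E2F site. Of the 38 genes 31 had an entry in the RefSeq promoter table (GRCm38.p6), which spans 250 bases before to 50 after each annotated start, and 13 of these (41.9%) held at least 1 of the letters TTTGGCGC, TTTCCCGC, TTTCGCGC or TTTGCCGC on either strand, beside 2.605% of the 27025 genes in the table. In the 250 bases before the start alone it was 9 of 31 (29.0%) beside 2.16%. A CCAAT box (CCAAT, either strand) was in 64.5% of the members and 41.1% of all genes, and a CHR element (TTTGAA or TTCGAA, either strand) in 19.4% and 21.7%. The 150 bases before the start are shown for 4 members with E2F letters there, 5′ to 3′ on the gene's strand, with those letters in capitals; they were picked because no exon of the GENCODE annotation reaches into the window. Within the stretch Mcm6 holds 3 matches, of which the first and second overlap, and the others hold 1 each. The Cdc6 window lies inside the gene as GENCODE annotates it, from chr11:98907801 on, but outside its exons.
Cdc6 (GRCm38.p6 chr11:98908001-98908150, plus strand): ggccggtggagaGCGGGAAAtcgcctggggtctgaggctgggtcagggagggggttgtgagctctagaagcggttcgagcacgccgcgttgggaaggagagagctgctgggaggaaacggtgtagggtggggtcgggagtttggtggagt
Mcm5 (GRCm38.p6 chr8:75109359-75109508, plus strand): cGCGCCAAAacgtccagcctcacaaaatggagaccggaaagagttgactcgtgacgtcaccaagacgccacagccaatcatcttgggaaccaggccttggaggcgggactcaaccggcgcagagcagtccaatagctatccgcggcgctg
Mcm6 (GRCm38.p6 chr1:128359706-128359855, minus strand): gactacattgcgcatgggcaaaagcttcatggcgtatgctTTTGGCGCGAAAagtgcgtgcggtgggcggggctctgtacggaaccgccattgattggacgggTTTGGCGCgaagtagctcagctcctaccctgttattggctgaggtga
Pola1 (GRCm38.p6 chrX:93632156-93632305, minus strand): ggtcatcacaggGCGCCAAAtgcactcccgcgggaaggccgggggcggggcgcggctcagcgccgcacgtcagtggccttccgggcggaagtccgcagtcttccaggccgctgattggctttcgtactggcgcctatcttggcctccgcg
A match of letters describes the sequence and does not show that a factor binds there.

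The helicase activation genes split the most between members. In WT 5 of 6 fell (median -0.76) and Gins3 rose, and in cKO 2 fell, 2 rose and 2 were not called (median -0.11). Cdc45, which joins the MCM ring and GINS in the active helicase, had the largest fall of the whole list in WT, from 8.25, 7.45 and 7.95 to 3.55, 2.001 and 2.80 CPM (-1.50 ± 0.15, adjusted p = 1.23e-07). In cKO it went from 6.61, 5.95 and 6.41 to 3.50, 4.10 and 4.85 CPM (-0.61 ± 0.14, adjusted p = 0.00157). Mcm10, a factor needed for the helicase to start moving, went from 13.1, 12.8 and 14.2 to 5.45, 5.37 and 4.47 CPM in WT (-1.39 ± 0.086, adjusted p = 1.06e-10) and, with no overlap either, from 13.00, 12.9 and 13.7 to 6.99, 7.88 and 7.42 CPM in cKO (-0.83 ± 0.082, adjusted p = 6.02e-08). For both genes the irradiated cKO mean lay between the irradiated WT mean and the unirradiated groups. The 4 GINS genes encode one complex and did not move as one. Gins1 fell in WT, from 4.60, 3.58 and 3.91 to 2.41, 1.43 and 1.82 CPM (-1.10 ± 0.17, adjusted p = 2.82e-05), and stood at 4.10, 5.03 and 4.22 CPM without and 3.47, 3.43 and 4.25 CPM with IR in cKO, where it was not called (adjusted p = 0.18). Gins3 rose in both genotypes, from 16.4, 16.4 and 16.9 to 25.2, 24.1 and 22.4 CPM in WT (0.53 ± 0.057, adjusted p = 3.91e-07) and from 17.8, 18.3 and 17.3 to 23.9, 24.5 and 25.05 CPM in cKO (0.46 ± 0.057, adjusted p = 1.14e-06); as the sole member called higher in WT it is named after its values were seen. Gins4, the most abundant of this role by CPM, went from 23.1, 20.9 and 22.1 to 17.4, 20.3 and 20.2 CPM in WT and from 22.6, 25.2 and 23.03 to 28.6, 28.6 and 30.6 CPM in cKO. Its rise in cKO was 0.31 ± 0.065 (adjusted p = 5.12e-04); its fall in WT of 0.19 (adjusted p = 0.0355) was lost without WT Ctrl replicate 1 (adjusted p = 0.148), WT Ctrl replicate 3 (0.0763) or WT IR replicate 1 (0.143).

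The clamp and its loader changed less. Their median was -0.29 in WT, with 5 of 6 lower, and -0.05 in cKO, with 2 of 6 lower and none higher. Pcna, the sliding clamp, was the most abundant transcript of the list both by CPM and per length (52.9 RPKM in WT Ctrl, which is CPM divided by exon length in kilobases, ahead of Mcm3 at 23.5 and Fen1 at 20.1, with Orc1 lowest at 0.655). It stood at 129.8, 119.8 and 131 CPM without and 97.1, 99.9 and 105 CPM with IR in WT (-0.33 ± 0.043, adjusted p = 3.48e-06), with no overlap. In cKO the libraries overlapped, at 119, 124 and 114 CPM in Ctrl and 121, 121 and 119.5 in IR (log2 change 0.01 ± 0.042, adjusted p = 0.827). Rfc5, a small loader subunit, moved most in both genotypes, from 20.2, 17.6 and 19.98 to 12.04, 11.8 and 11.2 CPM in WT (-0.72 ± 0.068, adjusted p = 5.73e-08) and from 18.6, 20.1 and 18.5 to 14.8, 13.9 and 14.8 CPM in cKO (-0.40 ± 0.067, adjusted p = 4.80e-05). Rfc1, the large subunit, fell by 0.14 in WT (adjusted p = 0.0157), which was lost without WT Ctrl replicate 3 (adjusted p = 0.0588) or WT IR replicate 3 (0.0758), and by 0.24 in cKO (adjusted p = 8.38e-05). Rfc2 fell by 0.19 in WT (adjusted p = 0.0115), which was lost without WT IR replicate 2 (adjusted p = 0.0639).

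Among primase and polymerases 5 of 6 fell in each genotype (medians -0.68 in WT and -0.36 in cKO), but not the same 5. Prim1, the catalytic primase subunit, changed most in WT, from 4.79, 4.87 and 4.78 to 1.76, 2.29 and 2.80 CPM (-1.07 ± 0.15, adjusted p = 1.27e-05). In cKO it stood at 4.71, 4.29 and 3.81 CPM in Ctrl and 3.19, 3.81 and 2.73 in IR (-0.39 ± 0.15, adjusted p = 0.0341), a call that was lost without cKO Ctrl replicate 1 (adjusted p = 0.136), cKO Ctrl replicate 2 (0.0755), cKO IR replicate 1 (0.0849) or cKO IR replicate 3 (0.162). Pole, the catalytic subunit of the leading-strand polymerase epsilon, had the largest fall of the whole list in cKO, from 11.2, 12.5 and 12.6 to 5.58, 5.43 and 4.79 CPM (-1.20 ± 0.097, adjusted p = 3.47e-09), beside 14.7, 13.1 and 13.2 to 7.45, 8.18 and 6.24 CPM in WT (-0.91 ± 0.094, adjusted p = 2.26e-07). Neither genotype's libraries overlapped for Pole. Pola2, a regulatory subunit of polymerase alpha and the most abundant of this role by CPM, went from 23.4, 24.9 and 24.9 to 18.2, 18.6 and 17.04 CPM in WT (-0.44 ± 0.056, adjusted p = 3.20e-06) and from 24.9, 24.5 and 25.3 to 22.1, 20.6 and 20.7 CPM in cKO (-0.24 ± 0.055, adjusted p = 0.0014). Pold1, the catalytic subunit of polymerase delta, changed by -0.15 ± 0.070 in WT and was not called (adjusted p = 0.105), though it was without WT Ctrl replicate 1 (adjusted p = 0.0309) or WT IR replicate 1 (0.0346), and fell by 0.34 in cKO (adjusted p = 4.99e-04). Prim2, the other primase subunit, fell in WT (-0.56 ± 0.083, adjusted p = 2.00e-05) and stood just outside the threshold in cKO (-0.20 ± 0.081, adjusted p = 0.0543), where it was called without cKO Ctrl replicate 3 (adjusted p = 0.0451) or cKO IR replicate 3 (0.0499).

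The genes for single-strand binding and Okazaki fragment maturation, Rpa1, Rpa2, Fen1 and Lig1, fell in both genotypes, 4 of 4 in each (medians -0.53 and -0.26). Lig1, the ligase that seals Okazaki fragments, fell from 40.5, 43.9 and 44.2 to 27.2, 22.5 and 22.2 CPM in WT (-0.84 ± 0.066, adjusted p = 4.28e-09) and from 40.1, 40.8 and 40.4 to 23.3, 23.3 and 21.3 CPM in cKO (-0.84 ± 0.066, adjusted p = 2.67e-09). Fen1, the flap endonuclease that trims them, went from 50.2, 46.98 and 48.9 to 37.9, 34.7 and 36.6 CPM in WT (-0.42 ± 0.049, adjusted p = 1.02e-06) and from 53.9, 57.6 and 59.8 to 47.1, 47.7 and 49.1 CPM in cKO (-0.25 ± 0.048, adjusted p = 1.96e-04). Irradiated and unirradiated libraries did not overlap for either gene in either genotype. The call of Rpa2, a subunit of the single-strand binding protein RPA, in cKO (-0.24 ± 0.083, adjusted p = 0.0254) was lost without cKO Ctrl replicate 2 (adjusted p = 0.129), cKO IR replicate 1 (0.0757) or cKO IR replicate 2 (0.0622).

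The 5 nucleotide supply genes fell in WT (median -0.87), and 3 of them in cKO (median -0.77). Rrm2, the S phase subunit of ribonucleotide reductase, went from 22.2, 20.5 and 22.1 to 6.90, 8.72 and 7.99 CPM in WT (-1.46 ± 0.076, adjusted p = 9.51e-12), so that it fell by 63.5%. In cKO it went from 21.3, 19.9 and 20.7 to 11.1, 10.2 and 10.8 CPM (-0.95 ± 0.074, adjusted p = 2.19e-09), so that it fell by 48.1%. Rrm1, the large subunit and the most abundant of this role by CPM, went from 57.00, 57.3 and 57.4 to 29.8, 31.9 and 32.4 CPM in WT (-0.87 ± 0.053, adjusted p = 9.02e-11) and from 52.2, 55.99 and 49.6 to 29.05, 32.2 and 31.5 CPM in cKO (-0.77 ± 0.053, adjusted p = 3.52e-10). All irradiated libraries lay below all unirradiated ones for both subunits. Tyms, thymidylate synthase, stood at 9.51, 9.995 and 9.66 CPM without and 5.59, 5.39 and 5.49 CPM with IR in WT (-0.82 ± 0.079, adjusted p = 6.87e-08), against 9.51, 9.13 and 9.49 CPM without and 8.70, 9.31 and 10.1 CPM with IR in cKO, where the libraries overlapped (log2 change 4.74e-04 ± 0.075, adjusted p = 0.997). Dut, which removes dUTP, went from 14.6, 13.6 and 13.8 to 8.99, 7.10 and 10.6 CPM in WT (-0.65 ± 0.10, adjusted p = 3.88e-05) and stood at 12.9, 13.7 and 12.1 CPM without and 11.2, 12.1 and 12.5 CPM with IR in cKO (-0.11 ± 0.099, adjusted p = 0.388). Uhrf1, which binds hemimethylated DNA behind the fork and recruits DNMT1, fell in both genotypes, from 38.5, 41.1 and 40.97 to 17.4, 18.4 and 18.4 CPM in WT (-1.15 ± 0.050, adjusted p = 5.50e-13) and from 36.3, 36.9 and 35.4 to 17.6, 17.4 and 17.2 CPM in cKO (-1.06 ± 0.050, adjusted p = 1.98e-12).

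**Figure D2:**
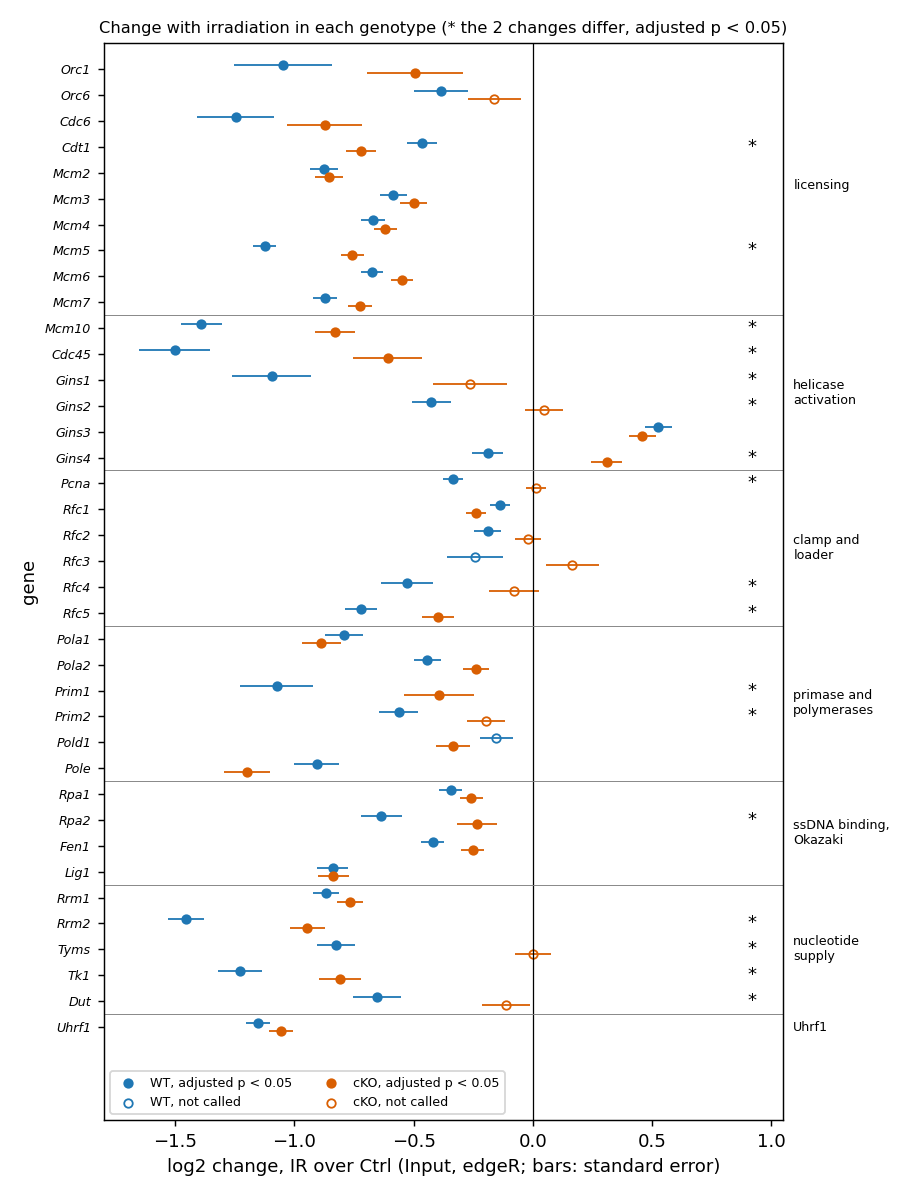
Log2 change with irradiation of each replication gene (rows, by role) in WT (blue) and cKO (orange) Inputs, with standard errors; filled points were called and stars mark genes whose 2 changes differ. WT points reach from -1.50 (Cdc45) to 0.53 (Gins3) and lie left of the cKO point at 16 of the 17 stars.

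Without irradiation few of these genes were called between the genotypes. In cKO Ctrl against WT Ctrl Inputs 1 gene was lower and 1 higher, beside 7.61% and 8.05% of all genes, and the median log2 difference was -0.03. Fen1 was higher in cKO Ctrl (0.23 ± 0.048, adjusted p = 0.00186), its libraries at 53.9, 57.6 and 59.8 CPM all above the WT Ctrl libraries. Uhrf1 was lower (-0.15 ± 0.048, adjusted p = 0.0357), a call that was lost without WT Ctrl replicate 2 (adjusted p = 0.132), WT Ctrl replicate 3 (0.124), cKO Ctrl replicate 1 (0.0931), cKO Ctrl replicate 2 (0.0671) or cKO Ctrl replicate 3 (0.135). The other 36 lay between -0.32 (Cdc45) and 0.15 (Gins1). Among the irradiated Inputs 22 genes were higher and 5 lower in cKO, beside 23.9% and 23.8% of all genes, with a median of 0.31. The largest were Gins1 at 0.98 ± 0.17 (adjusted p = 5.86e-05), Tyms at 0.77 ± 0.079 (adjusted p = 8.92e-08) and Gins4 at 0.60 ± 0.066 (adjusted p = 2.51e-07), and in each the 3 cKO IR libraries lay above the 3 WT IR libraries. The 5 lower genes were Pole (-0.47), Cdt1 (-0.26), Pola1 (-0.24), Pold1 (-0.24) and Rfc1 (-0.17). Of these calls, that of Pola1 was lost without WT IR replicate 3 (adjusted p = 0.0825) or cKO IR replicate 2 (0.124), and those of Orc6, Prim1, Mcm7 and Rfc4 were each lost without at least 1 library. This comparison shares its libraries with the irradiation comparisons, so its counts are not separate evidence.

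The test of the difference, the irradiation change in cKO minus that in WT, called 16 genes with a smaller fall or a rise in cKO and 1 with a larger fall. Over all genes 15.0% were called higher and 15.2% lower in this test, and the median for the list was 0.27. The 8 with the largest called differences were Cdc45 at 0.89 ± 0.21 (adjusted p = 0.00239), Gins1 at 0.83 ± 0.23 (adjusted p = 0.0079), Tyms at 0.83 ± 0.11 (adjusted p = 8.60e-06), Prim1 at 0.68 ± 0.21 (adjusted p = 0.019), Mcm10 at 0.56 ± 0.12 (adjusted p = 0.00108), Dut at 0.54 ± 0.14 (adjusted p = 0.00626), Rrm2 at 0.51 ± 0.11 (adjusted p = 9.44e-04) and Gins4 at 0.50 ± 0.093 (adjusted p = 3.37e-04). None of these 8 was called between the genotypes without irradiation in the fit over all 12 Inputs, though Cdc45 stood at -0.32 ± 0.14 (adjusted p = 0.138) and was called when the 6 unirradiated Inputs were fitted alone (adjusted p = 0.00624), and the cKO Ctrl libraries of Cdc45, Prim1 and, by less than the digits shown, Tyms all lay below the WT Ctrl ones. All 8 were called higher in cKO among the irradiated Inputs, though for Cdc45 and Prim1 the 2 sets of 3 libraries overlapped. By role, 5 of 6 helicase activation genes, 4 of 5 nucleotide supply genes and 3 of 6 clamp and loader genes were called, against 2 of 10 licensing genes, Mcm5 (0.37) and Cdt1 (-0.25). Mcm2 (0.02 ± 0.082), Mcm4 (0.05 ± 0.070) and Lig1 (0.00 ± 0.094) had differences smaller than their standard errors. In the same test 13 of 17 mitotic proliferation genes, 6 of 8 neutrophil genes and 4 of 7 primary granule genes were called higher and 3 of 5 erythroid genes lower. Mitochondrial genes took 4.61% to 4.84% of the counts in WT Ctrl and 6.13% to 7.25% in WT IR Inputs, but 5.34% to 5.51% in cKO Ctrl and 3.39% to 3.75% in cKO IR. Reads that the counting assigned to no annotated feature likewise went up with irradiation in WT, from 5.04% to 5.11% of reads to 5.70% to 6.55%, and down in cKO, from 4.24% to 4.29% to 3.95% to 4.14%. Whether such reads lay in introns or between genes was not examined. The part of these shifts in the difference between genotypes was not tested. Prim1 lost its call without cKO Ctrl replicate 3 (adjusted p = 0.0536) or cKO IR replicate 2 (0.0707). Rfc4 lost it without WT Ctrl replicate 1 (adjusted p = 0.0657), WT Ctrl replicate 3 (0.0761), WT IR replicate 2 (0.0501), cKO Ctrl replicate 1 (0.0614), cKO Ctrl replicate 3 (0.0598) or cKO IR replicate 1 (0.0964). Prim2 lost it without WT Ctrl replicate 3 (adjusted p = 0.0556), WT IR replicate 2 (0.0501), cKO Ctrl replicate 3 (0.0582) or cKO IR replicate 3 (0.0562), and Cdt1 without WT Ctrl replicate 1 (adjusted p = 0.0964), WT Ctrl replicate 3 (0.0505), WT IR replicate 3 (0.0972), cKO Ctrl replicate 1 (0.0604), cKO Ctrl replicate 3 (0.0715) or cKO IR replicate 3 (0.0823).

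**Figure D3:**
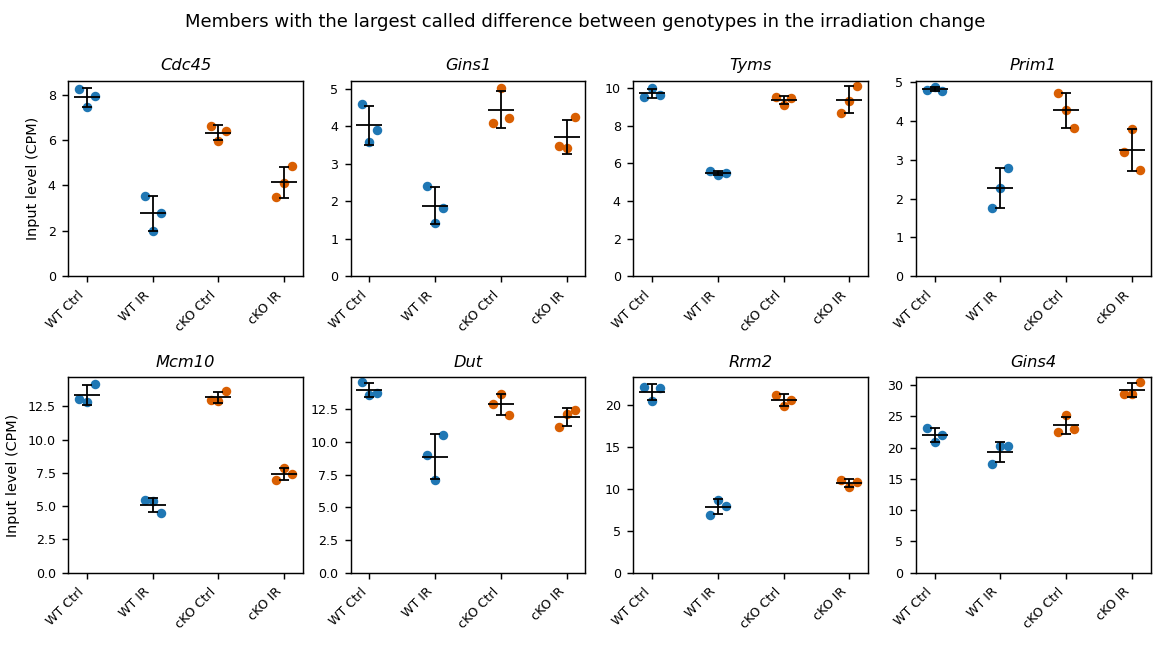
Input level in CPM (vertical axes from 0) of the 8 genes with the largest called difference between genotypes in their irradiation change, one point per library, WT blue and cKO orange; the horizontal mark is the group mean and the bar its SD (n = 3). In WT each gene drops with irradiation, Tyms from about 9.72 to 5.49 CPM, while in cKO Tyms and Dut overlap between Ctrl and IR and Gins4 rises.

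Genes of the same pathway outside the list were read from fixed lists. Of 40 other replication genes 29 were lower and 1 higher in WT IR, and 24 were lower and 6 higher in cKO IR, with medians of -0.41 and -0.30. The shares of all tested genes called lower and higher were 17.0% and 14.7% in WT IR, and 23.8% and 21.8% in cKO IR. Clspn, the checkpoint adaptor at the fork, changed by -1.58 ± 0.067 in WT and -1.40 ± 0.067 in cKO. Rrm2b, the p53-induced ribonucleotide reductase subunit, was the gene called higher in WT (0.22 ± 0.064), and it was higher in cKO too (0.43 ± 0.064). Of 24 G1/S regulators 18 were lower and 3 higher in WT, and 15 lower and 2 higher in cKO, beside the same shares of all genes. E2f7 and E2f8, repressors that E2F itself induces, changed by -2.11 ± 0.16 and -1.26 ± 0.080 in WT and by -1.63 ± 0.16 and -1.17 ± 0.081 in cKO, while Cdkn1a, the p53-induced inhibitor of cyclin-dependent kinases, rose by 1.19 ± 0.032 and 1.06 ± 0.032. All 17 mitotic proliferation genes fell in both genotypes (medians -1.60 and -1.28). Of the 17, 13 were already lower in cKO Ctrl than in WT Ctrl (median -0.30), beside 7.61% of all genes. In that comparison 2 of the 38 replication genes were called. Mki67, a marker of cycling cells, went from 314 to 130.5 CPM in WT and from 270.0 to 102 CPM in cKO.

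The m6A part starts from libraries that differ in more than methylation. Car4 summed to 72 counts over the 12 Inputs (at most 0.255 CPM) and lay between 78.4 and 196 CPM in the 12 IP libraries, and Cxcl5 lay between 28.6 and 78.2 CPM in the Inputs and at most at 0.131 CPM in the IP libraries. Apoe, a macrophage gene, lay between 2106 and 2756 CPM in the Inputs and between 19.6 and 44.9 CPM in the IP libraries; these 3 genes were chosen after their values were seen. In all, 3 genes stood at 20 CPM or more in every IP library and under 1 CPM in every Input, and 2 the other way round. An IP over Input ratio of a gene can hold a difference in the cells or RNA behind the 2 libraries as well as its methylation, and these cannot be told apart here. The Input libraries used as control for peak calling are not given in the sources used here.

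With that limit, the replication genes stood high in the IP libraries. In WT Ctrl 37 of 38 were higher in IP than in Input and none lower, beside 38.1% and 37.5% of all genes, and the median log2 ratio was 1.59, beside 0.02 for all genes. In cKO Ctrl it was again 37 and 0, beside 37.8% and 36.0%, with a median of 1.62. The exception was Pold1 in both (-0.03 ± 0.067 and 0.01 ± 0.067). The highest ratio was that of Tk1, thymidine kinase, with 8.44, 8.34 and 9.04 CPM in the WT Ctrl Inputs and 143, 141 and 139 CPM in the IP libraries (log2 ratio 3.92 ± 0.047). Fen1 followed, with 503, 502 and 506 CPM in IP (3.26 ± 0.035). Gins1 had 29.7, 30.7 and 27.8 CPM (2.76 ± 0.10) and Rfc3, a loader subunit, 39.6, 35.6 and 34.7 CPM (2.64 ± 0.082). Cdc6, at 31.8, 33.2 and 29.6 CPM (2.52 ± 0.099), and Mcm10, at 81.8, 82.98 and 81.63 CPM (2.51 ± 0.052), complete the 6 highest. The IP libraries of these 6 genes lay above all their Inputs. The mitotic proliferation genes stood high too, with 17 of 17 above Input in each genotype and medians of 1.91 and 2.28. In the irradiated groups, by label, 37 were higher and 1 lower in WT IR (background 37.0% and 36.5%, list median 1.66) and 36 higher and 1 lower in cKO IR (36.9% and 36.9%, median 1.12), with Pold1 the lower one.

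**Figure D4:**
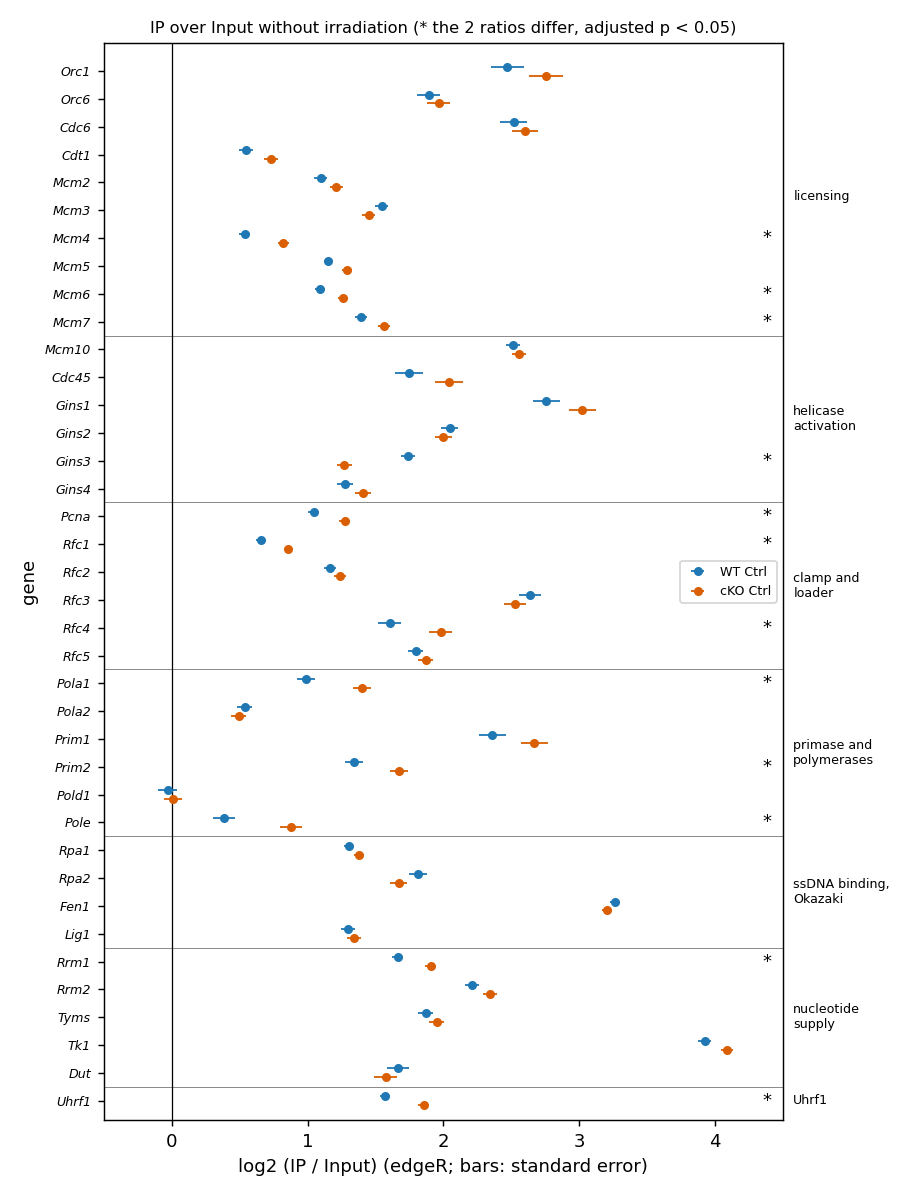
Log2 of IP over Input for each replication gene (rows, by role) in WT Ctrl (blue) and cKO Ctrl (orange), with standard errors; stars mark the 12 genes whose ratios differ between genotypes. The ratios run from about 0 (Pold1) to 3.92 and 4.09 (Tk1), and 11 of the 12 starred genes have the higher ratio in cKO Ctrl.

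Between the unirradiated genotypes the ratio was higher in cKO Ctrl for 11 of the 38 genes and lower for 1, beside 10.1% and 12.5% of all genes (list median 0.13). Pole had the largest rise, with IP libraries at 17.2, 19.7 and 20.8 CPM in WT Ctrl and 24.6, 25.8 and 22.1 CPM in cKO Ctrl (0.49 ± 0.11, adjusted p = 0.00144). Gins3 was the one that fell, with 59.9, 62.8 and 56.5 against 47.6, 46.1 and 46.5 CPM in IP (-0.47 ± 0.076, adjusted p = 1.36e-05). Pola1, the catalytic subunit of polymerase alpha, rose from 31.00, 29.9 and 30.1 to 39.3, 36.2 and 35.02 CPM in IP (0.41 ± 0.096, adjusted p = 0.00139). For each of these 3 genes the IP libraries of the genotypes did not overlap. Rfc4 (0.37 ± 0.12, adjusted p = 0.0196), Prim2 (0.33 ± 0.091, adjusted p = 0.00684) and Uhrf1 (0.29 ± 0.052, adjusted p = 7.94e-05) complete the 6 largest among the called genes, while Prim1 (0.31 ± 0.14, adjusted p = 0.112) and Cdc45 (0.29 ± 0.15, adjusted p = 0.166) were not called, though they were when the 12 unirradiated libraries were fitted alone (adjusted p = 0.0332 and 0.0290). The Rfc4 call was lost without WT Ctrl IP replicate 1 (adjusted p = 0.0642), WT Ctrl Input replicate 1 (0.0524), WT Ctrl Input replicate 3 (0.0776) or cKO Ctrl IP replicate 1 (0.0545), and the Mcm6 call without WT Ctrl Input replicate 1 (adjusted p = 0.0679). The Mcm7 call (adjusted p = 0.0458) was lost on leaving out any one of the 12 unirradiated libraries, with adjusted p from 0.0527 to 0.123. In this ratio 15 of 17 mitotic proliferation genes were higher (median 0.40), as were 6 of 8 neutrophil genes (median 1.03) and 6 of 7 primary granule genes (median 1.43), and their part was not tested.

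The change of the ratio with irradiation, averaged over both genotypes, is the same if the genotype labels of the irradiated IP libraries are exchanged, and it has no value without those libraries. In it 20 of the 38 were lower and 10 higher, beside 23.1% and 25.3% of all genes (list median -0.18). The lowest were Gins3 (-1.11), Rfc3 (-0.79), Rfc4 (-0.73) and Gins2 (-0.72), and the highest Pole (0.64), Rrm2 (0.41), Uhrf1 (0.40) and Pola1 (0.39). In the same ratio 8 of 8 neutrophil genes (median 1.38), 7 of 7 primary granule genes (median 5.17), 3 of 3 endothelial genes tested (median 1.71) and 10 of 17 mitotic proliferation genes (median 0.31) were higher, and their part was not tested. In the IP libraries themselves, 32 of the 38 had all 3 libraries labelled WT IR above all 3 labelled cKO IR and 3 had the reverse, beside 24.3% and 22.8% of all genes. By an unlike measure, the edgeR calls, the Inputs with those labels had 22 genes higher and 5 lower in cKO IR, beside 23.9% and 23.8% of all genes. Gins1, for example, stood at 19.3, 18.02 and 18.5 CPM in IP labelled WT IR and 14.3, 14.95 and 13.9 in IP labelled cKO IR. Neither order is read as a genotype effect in IP, given the Lyz2 levels of these libraries.

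Peaks of the antibody signal, as deposited for each IP library, were kept where the peaks of all 3 replicates overlapped on the same strand. The summit of each kept peak, here and below, is that of replicate 1 of its group. At least 1 such peak lay on 35 of the 38 genes in WT Ctrl, 36 in cKO Ctrl, 32 under the WT IR label and 26 under the cKO IR label, beside 27.6%, 25.7%, 23.2% and 20.8% of all tested genes. Members and other genes were not matched on read depth. In all, 25 members were marked in all 4 groups, 11 in 1 to 3, and Pold1 and Pole in none; Pola1 was marked in cKO Ctrl alone. Mcm10 had 12 peaks in WT Ctrl, Rrm1 11 and Uhrf1 10. Tk1 held the strongest, with a median fold enrichment over 3 replicates of 25.1 (16.7 to 25.9) in its exon 6 at chr11:117816462-117816692 (mm10, minus strand), a coding stretch, and its 5 peaks in WT Ctrl had folds from 12.3 upwards. The next members by their highest peak in WT Ctrl were Cdc45 (12.7), Gins2 (12.3), Rrm2 (10.9) and Mcm10 (10.8). The exon 6 peak of Tk1 had a fold of 23.3 in cKO Ctrl, 17.98 under the WT IR label and 19.3 under the cKO IR label, and it was the strongest on the gene except under the WT IR label, where a peak with its summit in an intron had 19.05.

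Most peaks of the list, though not all, had their summit near the 5′ edge of an exon. Members and other genes were not matched on exon number. Of 177 member peaks in WT Ctrl, 105 (59.3%) had their summit within 25 bases of the 5′ edge of an internal or last exon, beside 33.3% of all 12181 peaks on genes. Only 1 (0.565%) lay that close to a 3′ edge, beside 0.993% of all. In cKO Ctrl it was 54.0% beside 32.7%, and in the libraries labelled WT IR and cKO IR 59.5% beside 30.5% and 56.0% beside 26.8%. In all, 38.4% of the member summits in WT Ctrl lay in introns, beside 17.7% of all, and 44.1% lay in coding sequence and 5.65% in 3′ UTRs. The authors called peaks with reads extended to 150 bases along the genome, and how far spliced reads so extended place a summit in the neighbouring intron was not tested. The letters GGACT, a form of the m6A motif, were in 9.60% of the 177 windows of 50 bases on either side of a member summit in WT Ctrl, and in 11.5% of such windows of all peaks. Other forms counted were GGACA (6.78% beside 13.5%), GGACC (7.91% beside 10.9%) and AGACT (15.3% beside 12.2%). Any of these forms was in 34.5% of member windows and 40.1% of all. How often such short letters occur by chance was not tested. The 81 bases around the summit are shown for the 6 members with the highest folds among peaks that lie this close to an edge and hold no UTR base in the window, to let the position be seen: coding bases are in capitals and intron bases in lower case, 5′ to 3′ on the gene's strand, from GRCm38.p6. In 5 of them the intron ends with the letters ag just before the exon. In Rfc4 the whole window is coding in at least 1 annotated transcript, so no edge shows.
Cdc45 (chr16:18807381-18807461, minus strand, fold 12.7): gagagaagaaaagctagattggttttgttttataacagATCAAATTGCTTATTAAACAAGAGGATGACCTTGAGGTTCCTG
Tk1 (chr11:117822164-117822244, minus strand, fold 12.3): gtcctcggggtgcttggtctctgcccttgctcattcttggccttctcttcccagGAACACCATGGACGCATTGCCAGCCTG
Rfc4 (chr16:23114056-23114136, minus strand, fold 9.86): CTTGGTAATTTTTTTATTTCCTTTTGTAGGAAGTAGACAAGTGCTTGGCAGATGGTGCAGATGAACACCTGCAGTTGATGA
Mcm10 (chr2:4998622-4998702, minus strand, fold 9.62): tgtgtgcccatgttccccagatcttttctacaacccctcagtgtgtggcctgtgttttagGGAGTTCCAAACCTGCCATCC
Cdc6 (chr11:98921076-98921156, plus strand, fold 9.45): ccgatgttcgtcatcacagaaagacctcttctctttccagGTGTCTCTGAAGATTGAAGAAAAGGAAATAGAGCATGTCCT
Gins3 (chr8:95637768-95637848, plus strand, fold 8.96): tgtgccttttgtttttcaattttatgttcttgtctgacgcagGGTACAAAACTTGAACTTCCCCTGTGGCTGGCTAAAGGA

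**Figure D5:**
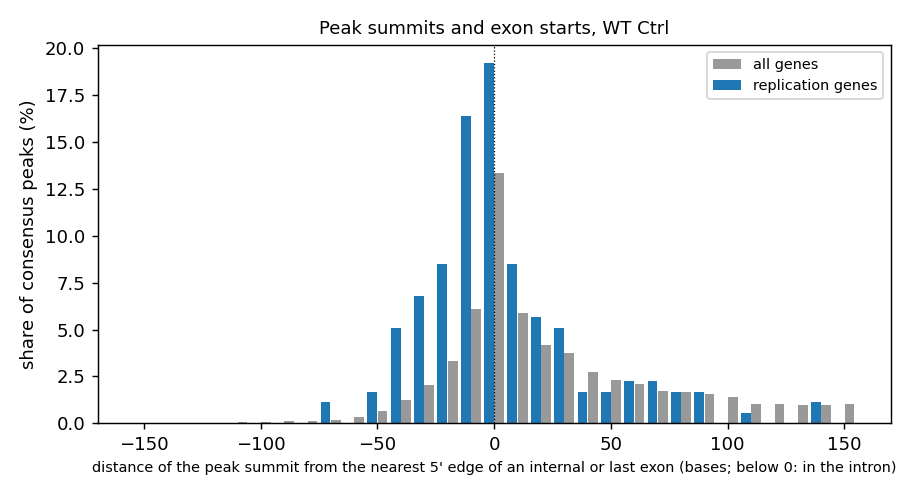
Share of consensus peaks in WT Ctrl (vertical axis, %) by the distance of the summit from the nearest 5′ edge of an internal or last exon (horizontal axis, bases in bins of 10; below 0 is intron), for the 177 peaks on replication genes (blue) and the 12181 on all genes (grey). The blue bars peak at the edge, with 19.2% in the central bin and 16.4% in the bin before it. Summits are those of replicate 1.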

How the data were processed

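Poly(A) RNA of CD11b+ cells was measured before (Input) and after m6A immunoprecipitation (IP) in 24 libraries. Reads were trimmed by the authors (Trimmomatic 0.39), mapped to mm10 with HISAT and counted per GENCODE gene with HTSeq, and the deposited counts are raw; whether the counting used the strand is not given in the sources used here. The authors called peaks per IP library with MACS2 at a q of 0.01 with reads extended to 150 bases, and the deposited peak files hold a fold enrichment, −log10 p and q values and a score for each peak, of which the position, summit and fold enrichment were used.

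Counts were fitted with edgeR 4.0.16 in R 4.3.3 (quasi-likelihood test, TMM scaling, a floor of 10 counts reached in 3 or more libraries, Benjamini-Hochberg adjustment over all genes tested), once over the 12 Inputs and once over all 24 libraries, with 1 mean per group and no covariate; the tests were tried on simulated data. Tables were handled in Python 3.11.15 with pandas 2.3.3. Gene lengths and exons came from a GENCODE annotation of GRCm38 that is a later release than the authors used. Alternatives were DESeq2 1.42.0, other filters, the replicate number as a block, fits over fewer libraries, each library left out, and stricter peaks. Within each role, values per library were given for the genes with the largest irradiation change in each genotype and the highest mean Input level, and beyond these for the 8 with the largest called difference between genotypes, and in IP for the 6 highest ratios in WT Ctrl and the 6 largest called genotype differences. The members, lists and tests were chosen with earlier results of these data known. No deposited column of per-sample values went unmapped.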

Additional observations from a re-analysis of the deposited data

Results flagged for a closer look

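For 17 of the 38 replication genes the irradiation change in the Inputs differed between cKO and WT by a test of the difference itself (edgeR, adjusted over all genes), beside 15.0% of all genes called higher in cKO and 15.2% called lower, and the values here are the log2 change in cKO minus that in WT. Among the helicase activation genes it was 0.89 for Cdc45, 0.83 for Gins1, 0.56 for Mcm10, 0.50 for Gins4 and 0.47 for Gins2. Among the nucleotide supply genes it was 0.83 for Tyms, 0.54 for Dut, 0.51 for Rrm2 and 0.42 for Tk1. Among the primase genes it was 0.68 for Prim1 and 0.37 for Prim2. Among the clamp and loader genes it was 0.45 for Rfc4, 0.35 for Pcna and 0.32 for Rfc5. It was also 0.40 for Rpa2 of the single-strand binding complex and 0.37 for the licensing gene Mcm5. Cdt1 was the one with a larger fall in cKO, at -0.25. Rfc4 and Cdt1 each lost the call in 6 of the fits that left out a library, Prim2 in 4 and Prim1 in 2. In the same test 13 of 17 mitotic proliferation genes, 6 of 8 neutrophil genes and 4 of 7 primary granule genes were called higher and 3 of 5 erythroid genes lower, and the mitochondrial share of counts rose with irradiation in WT and fell in cKO; the part of those shifts in the replication genes was not tested.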

How the results depend on the processing

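In cKO Ctrl against WT Ctrl Inputs the count of lower replication genes, 1 as reported, was 0 without the count filter, 0 with the replicate block and 4 when only the 6 libraries of that comparison were fitted, and it ran from 0 to 1 over fits that left out 1 library. The count of genes with a larger fall in cKO than in WT, also 1, was 0 without the count filter and ran from 0 to 1 on leaving out 1 library. Under the cKO IR label the genes with a peak numbered 14 rather than 26 when peaks of at least 4-fold enrichment were required. The share of all tested genes at that cut is not set beside this count. Over the stricter peak settings the lowest counts elsewhere were 31 rather than 35 in WT Ctrl, 27 rather than 36 in cKO Ctrl and 27 rather than 32 under the WT IR label. The cause of these shifts was not tested. In that fit over 6 libraries, 1893 of all genes were lower and 1977 higher, against 1225 and 1295 as reported. Leaving out 1 library, the genes lower with irradiation numbered 32 to 35 in WT and 23 to 26 in cKO, and those with a higher change in cKO than in WT 14 to 21. Of the values of single replication genes, 92 changed sign in an alternative, and none of these was called as reported or in that alternative. The balance over all genes did turn with the scaling. In cKO Ctrl against WT Ctrl 1524 were lower and 1315 higher with DESeq2 and 1334 and 1190 with RLE scaling, and for IP over Input in WT Ctrl 6869 were lower and 6397 higher with DESeq2, against 6510 and 6612 as reported. The median ratio of all genes, 0.02 as reported, was then -0.04 in WT Ctrl and -0.02 in cKO Ctrl with either scaling. Same-numbered libraries of different groups did not deviate together among the Inputs or among the IP libraries. The correlations were -0.208 to 0.118 over 18 Input pairs (1 of them over 0.1) and -0.038 to 0.067 over 18 IP pairs. IP libraries were not set against the Inputs of the same number, so a pairing between these was not examined. The IP over Input tests were fitted without pairs. The replicate block left 35 genes lower in WT and 25 in cKO.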
